A study of Sus scrofa with 12 samples.

Results

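The acrosome is the enzyme-filled vesicle that caps the sperm nucleus, and the genes described here encode proteins of its content and membranes. They were chosen by name: every entry of the coding-gene table whose symbol is ACR, ACRBP, ACRV1, SPACA1, SPACA3, SPACA4, SPACA7, ZPBP, ZPBP2 or SPAM1. These 10 symbols gave 11 of the 21674 entries, because SPACA7 has both an annotated gene and a second, assembled one. All 11 are accounted for in each comparison.

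Testes of Hezuo and Landrace boars were profiled by strand-specific RNA sequencing after ribosomal RNA had been removed. The 4 groups were 30-day-old Hezuo (Ha), 120-day-old Hezuo (Hb), 30-day-old Landrace (La) and 120-day-old Landrace (Lb), untreated and with 3 boars each. Every library came from a separate boar kept under shared conditions. Whole testis was used, so the values are sums over all its cell types, and fewer cells of a type cannot be told apart from less RNA in each cell.

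Summed over coding genes, the estimated counts of a library ranged from 22538417 to 23758931 in Ha and from 17165519 to 22707568 in Hb. In La the range was 18523274 to 23563949, and in Lb it was 18998959 to 23253496. Levels are given as FPKM, which is scaled for transcript length and depth and is the only scale used here to set genes against each other. CPM are counts scaled to library size with TMM factors over the 12 libraries. Differences are log2 fold changes of the second group over the first from edgeR's quasi-likelihood test on counts, with the standard error (SE). A gene is called when its Benjamini-Hochberg adjusted p over all coding genes tested is under 0.05 and its log2 fold change is over 1 in size. An exact permutation of 3 against 3 boars cannot fall below 0.1 for a single gene, so the p values depend on the variance model fitted across genes.

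Acrosomal proteins are made by round and elongating spermatids, and several are already transcribed in late meiotic cells. Their vesicle grows from the Golgi apparatus, spreads over the nucleus, and releases its content near the egg. The genes are therefore widely used as markers of the postmeiotic testis. On the Sscrofa11.1 assembly ACR lies on chromosome 5 from 30127 to 36005 and ACRBP on the same chromosome from 64036810 to 64047846. ZPBP2 (22454974 to 22462918) and SPACA3 (42046804 to 42050684) are both on chromosome 12. ACRV1 (52803378 to 52809975) and ZPBP (136105129 to 136186744) are both on chromosome 9. SPACA1 is on chromosome 1 from 56378300 to 56395497, SPAM1 on chromosome 18 from 23589947 to 23598739, and the annotated SPACA7 on chromosome 11 from 77367299 to 77378342. SPACA4, on chromosome 6 from 53968485 to 53968865, lies inside the span of another gene, FAM83E. The assembled SPACA7 is named in the table after a sperm acrosome-associated protein of the cheetah and has no position there.

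Acrosome transcripts together were scarce in the 30-day testis and abundant at 120 days in both breeds. The FPKM of the 11 entries summed to 16.8, 15.3 and 13.3 in the Ha boars and to 1263, 1059 and 1164 in the Hb boars. The sum was 10.8, 9.63 and 9.89 in La, and 910, 987 and 940 in Lb. Each 120-day sum was above every 30-day sum, and each sum of Hezuo was above each sum of Landrace at the same age. Their summed CPM was also taken as a percentage of the TMM-scaled library size, which is not the raw count total. The mean, with the SD over 3 boars, was 0.00244 ± 0.000255% for Ha, 0.301 ± 0.0534% for Hb, 0.00172 ± 0.000159% for La and 0.217 ± 0.0185% for Lb.

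The make-up of this sum differed between the ages. ZPBP2 held 48.2% to 52.5% of the summed FPKM in Ha and 39.1% to 42.9% in La, but 16.3% to 20.2% over the 6 libraries of 120 days. ACRBP held 10.1% to 12.6% in Ha, 13.2% to 18.9% in La and 27.6% to 33.1% at 120 days. The share of ACR was at most 2.18% in any 30-day library and lay between 8.23% and 11.3% in the 120-day libraries. So ZPBP2 led at 30 days and ACRBP at 120 days in every library.

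At 120 days the order of the levels was alike in the 2 breeds. ACRBP was highest (mean FPKM and SD over 3 boars of 356 ± 55.6 for Hb and 291 ± 24.1 for Lb), and each of its libraries exceeded those of the next gene. ZPBP2 (222 ± 23.9 in Hb and 170 ± 8.32 in Lb) and ZPBP (180 ± 27.3 and 138 ± 10.2) followed, with ranges that overlapped in Hb but not in Lb. SPACA1, ACRV1 and ACR, at mean FPKM between 91.4 and 115, were not separated from one another in either breed. A gap then led to SPACA4, at 28.9 ± 2.55 in Hb and 32.9 ± 10.6 in Lb. SPAM1 (19.8 ± 3.40 and 18.2 ± 1.84) and the assembled SPACA7 (19.9 ± 4.96 and 11.6 ± 1.29) overlapped in Hb and not in Lb. SPACA3 and the annotated SPACA7 were the lowest, below 10.6 FPKM in every library.

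At 30 days ZPBP2 was separated from all others in both breeds, with a mean FPKM of 7.54 ± 0.580 for Ha and 4.10 ± 0.284 for La. ZPBP, SPACA1 and ACRBP formed a second tier, with mean FPKM between 1.42 and 3.21. ACRBP lay below SPACA1 in Ha, while these 3 genes overlapped in La. The remaining 7 entries did not exceed 0.44 FPKM in any 30-day library.

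**Figure D1:**
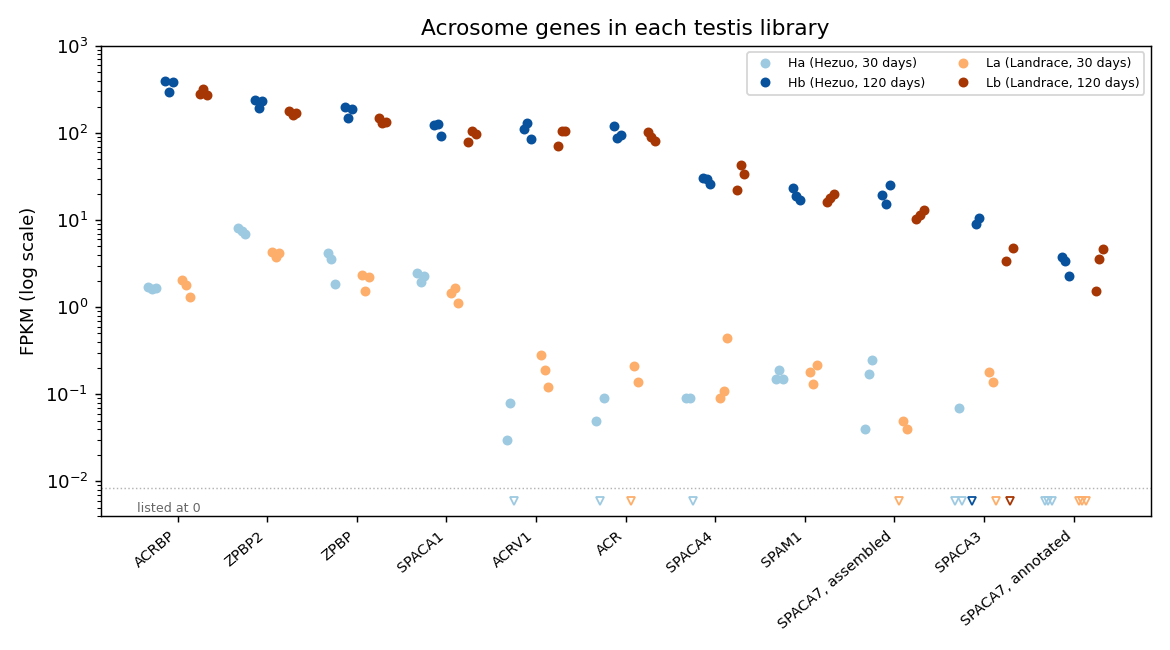
FPKM (log axis) of the 11 acrosome gene entries, with 1 filled point per library coloured by group and open triangles for libraries listed at 0. All 120-day points of ACRBP lie between 275 and 391 FPKM, against 1.31 to 2.03 at 30 days, and SPACA3 is listed at 0 in 1 library of each 120-day group.

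The comparisons of 120 with 30 days within a breed ask how testicular transcription differs between the immature and the older testis. Of the 11 entries, 10 could be tested in each breed, and all 10 were called higher at 120 days. ACR, ACRV1, SPACA4 and both SPACA7 entries held at most 9 counts in any 30-day library. They passed the filter only through their 120-day libraries, so higher was the only call open to them. The same holds for genes of the lists below that are near 0 at 30 days. ACRBP, ZPBP2, ZPBP, SPACA1 and SPAM1 could also be tested among the 30-day libraries alone. The background was high: 28.2% of the 16548 coding genes tested were called higher in Hb than in Ha, and 27.5% of 16637 were called higher in Lb than in La. The fitted log2 fold changes ran from 5.45 (ZPBP2) to 12.13 (ACRV1) in Hezuo and from 5.75 (ZPBP2) to 10.01 (annotated SPACA7) in Landrace. The annotated SPACA7 had 0 counts at 30 days, so its fitted value depends on the prior count and its rank is not known. Its lower bound in Landrace was 38.0-fold, against a fitted 53.6-fold for ZPBP2. Among entries with counts at 30 days ACR had the highest fitted value in Landrace, 9.94. The median of the 10 entries was 7.85 in Hezuo and 7.59 in Landrace, or 7.42 and 7.21 with genes at 0 at 30 days set to their lower bound. By limma on FPKM it was smaller, 4.98 and 5.18 with 1 added and 6.30 and 6.28 with 0.1 added. The median of all coding genes tested was −0.02 and 0.01. The untested entry, SPACA3, did not pass the filter with all 6 libraries. It had 148 and 133 counts in Hb2 and Hb3 and 55.1 and 63.9 in Lb1 and Lb3, but 0 in Hb1 and Lb2. The same 10 entries were called under each of the 15 alternatives run per breed.

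Acrosin, its binding protein, the hyaluronidase SPAM1 and the lysozyme-like SPACA3 come first. ACR encodes acrosin, a trypsin-like protease stored as an inactive precursor. Its FPKM was 0.05, 0 and 0.09 in Ha and 121, 88.5 and 95.8 in Hb. In La it was 0, 0.21 and 0.14, against 103, 89.8 and 81.8 in Lb. Only 0 to 7 counts per library stood behind the 30-day values, while each 120-day library held over 3000. The edgeR log2 fold change was 11.47 (SE 0.48, Benjamini-Hochberg adjusted p = 3.02e-06) in Hezuo and 9.94 (SE 0.41, adjusted p = 2.37e-07) in Landrace. Single 30-day libraries moved these sizes: without Ha3 the Hezuo value was 12.36, and without La1 or La2 the Landrace value was 9.34 or 10.53.

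ACRBP encodes the protein that binds the acrosin precursor and helps to pack it in the vesicle. It was present at 1.70, 1.61 and 1.67 FPKM in Ha and reached 391, 292 and 385 in Hb. La held 2.03, 1.82 and 1.31, and Lb held 278, 318 and 275. Between 91 and 135 counts supported each 30-day value, and the ages were apart by more than 2 orders of magnitude. The log2 fold change by edgeR was 8.25 (SE 0.26, adjusted p = 1.67e-06), or 304-fold, in Hezuo and 7.72 (SE 0.21, adjusted p = 5.29e-08), or 210-fold, in Landrace.

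SPAM1 encodes the hyaluronidase anchored to the sperm surface and the inner acrosomal membrane, which loosens the matrix around the egg. Its FPKM was 0.15, 0.19 and 0.15 in Ha and 23.6, 18.9 and 17.0 in Hb. La held 0.18, 0.13 and 0.22 and Lb 16.3, 18.2 and 20.0, so that the ages did not overlap and the breeds did. By edgeR the log2 fold change with age was 7.39 (SE 0.28) in Hezuo and 6.95 (SE 0.21) in Landrace.

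SPACA3 encodes a lysozyme-like acrosomal protein, and its values were uneven within the 120-day groups. The estimated counts were 0, 148 and 133 in Hb and 55.1, 0 and 63.9 in Lb. At 30 days they were 0, 1 and 0 in Ha and 2.49, 1.62 and 0 in La. Hb1 and Lb2 are thus listed at 0 while the other 120-day libraries are not, and all 6 values above 1 are not whole. Whether reads of SPACA3 were assigned to another entry could not be settled from the tables, so its zeros and every value built on them are uncertain. The ratio of summed, scaled counts of Hb over Ha was 400, with a 95% interval of counting error from 71.1 to 15800, and that of Lb over La was 32.8 (12.5 to 122). SPACA3 did not pass the filter of the age tests but entered them in 6 of the alternatives per breed. There its log2 fold change was 7.66 to 9.78 in Hezuo (SE 0.69 to 3.10), called in all 6, and 4.33 to 5.51 in Landrace (SE 0.68 to 1.96), called in 5. It was not called in Landrace without La3 (4.33, adjusted p = 0.057 by edgeR).

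Proteins that bind the zona pellucida, the coat of the egg, are encoded by ZPBP and ZPBP2, which also take part in building the acrosomal matrix. ZPBP2 stood at 8.12, 7.53 and 6.96 FPKM in Ha and at 237, 194 and 235 in Hb. In La its FPKM was 4.28, 3.77 and 4.24, and in Lb it was 177, 161 and 171. No library of one group reached the range of another: Hb was highest, then Lb, Ha and La. It had the smallest fitted age difference of the 10 tested entries, with an edgeR log2 fold change of 5.45 (SE 0.20, adjusted p = 1.91e-06), or 43.6-fold, in Hezuo and 5.75 (SE 0.13, adjusted p = 3.54e-08), or 53.6-fold, in Landrace.

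ZPBP stood at 4.17, 3.61 and 1.84 FPKM in Ha and at 201, 149 and 190 in Hb. La held 2.32, 1.54 and 2.25, and Lb 150, 131 and 133. The third Ha library was less than the other 2 and fell within the range of La. The edgeR log2 fold change with age was 6.32 (SE 0.37) in Hezuo and 6.38 (SE 0.19) in Landrace.

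Further content proteins are encoded by ACRV1 and SPACA7. ACRV1, the acrosomal antigen SP-10, had 1, 2 and 0 counts in Ha and 3791, 4791 and 2441 in Hb. It had 9, 5 and 4 counts in La and 2621, 3856 and 3153 in Lb. Every La library thus had more counts than any Ha library, at depths that were no greater as a group. With only 3 counts in all of Ha, the age difference in Hezuo is best given as the ratio of summed, scaled counts, 5220, with a 95% interval of counting error from 1790 to 25300. The fitted log2 fold change of 12.13 depends on the prior count and moved to 12.95 without Ha2. In Landrace the edgeR value was 9.19 (SE 0.29, adjusted p = 8.25e-08).

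SPACA7, a protein released from the acrosome during its exocytosis, was measured as 2 entries. The annotated gene had 0 counts in all 6 libraries of 30 days, 142, 137 and 72 counts in Hb and 62, 143 and 154 in Lb. Against a floor of 3 counts per library it was at least 53.0-fold higher in Hb than in Ha and at least 38.0-fold higher in Lb than in La. The assembled gene had 1, 4 and 6 counts in Ha and 466, 397 and 503 in Hb, against 0, 1 and 1 in La and 271, 297 and 275 in Lb. Its log2 fold change was 7.46 (SE 0.49, adjusted p = 1.72e-05 by edgeR) in Hezuo, and its ratio of summed, scaled counts was 464 (128 to 3840) in Landrace. Floors and intervals cover counting error only. Whether the 2 entries are copies or parts of 1 gene is not given by the table, so reads could have been split between them.

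Membrane proteins are encoded by SPACA1, which is needed for the shape of the acrosome and lies in its inner membrane, and SPACA4, a lipid-anchored protein of the Ly6 type that takes part in binding the zona. SPACA1 stood at 2.48, 1.94 and 2.30 FPKM in Ha and at 125, 129 and 91.8 in Hb. La held 1.47, 1.67 and 1.13, and Lb held 78.8, 105 and 98.4. The ages were far apart, La lay below Ha, and the 120-day groups overlapped. The edgeR log2 fold change with age was 6.17 (SE 0.21) in Hezuo and 6.36 (SE 0.20) in Landrace.

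SPACA4 had 1, 1 and 0 counts in Ha and 359, 379 and 252 in Hb, with 1, 1 and 5 in La and 278, 538 and 348 in Lb. The ratio of summed, scaled counts of Hb over Ha was 704 (194 to 5820). In Landrace the fitted log2 fold change was 7.46 (SE 0.50, adjusted p = 3.58e-06 by edgeR), and 8.50 without La3, the library with 5 counts. FAM83E, whose span holds SPACA4, stayed between 0.02 and 0.19 FPKM in all 12 libraries, against 22.0 to 43.1 for SPACA4 at 120 days. The counting is not stated to use strand, so reads in the overlap cannot be assigned to either gene with certainty.

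The comparison of the breeds at 30 days asks whether the testes differ before most of these genes are active. Only 5 of the 11 entries had enough counts to be tested, and none of the 5 was called by edgeR, against 7.62% of the 15648 coding genes tested. At an unadjusted p under 0.05 the number was 1 by edgeR, 1 by DESeq2 and 2 by limma on FPKM, and DESeq2 and limma called 0 as well. The groups did not overlap on the CPM scale for 2 of the 5 genes, ZPBP2 and SPACA1, against 41.8% of all genes tested.

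ZPBP2 differed most clearly between the young boars. Its CPM was 13.2, 12.1 and 11.3 in Ha and 7.34, 6.18 and 6.96 in La, so all 3 La libraries lay below all 3 Ha libraries. The edgeR log2 fold change was −0.84 (SE 0.15, Benjamini-Hochberg adjusted p = 0.0088), which passes the limit on p but not that on size. Over the alternatives it stayed between −0.90 and −0.74, with adjusted p between 5.19e-05 and 0.036. SPACA1 had CPM of 2.84, 2.21 and 2.64 in Ha and 1.74, 1.96 and 1.31 in La, with a log2 fold change of −0.62 (SE 0.27, adjusted p = 0.139 by edgeR). ZPBP also had −0.62 (SE 0.34), with overlapping groups. ACRBP (0.08, SE 0.22) and SPAM1 (0.14, SE 0.42) had intervals of the log2 fold change from −0.43 to 0.59 and from −0.83 to 1.11.

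The other entries did not pass the filter at 30 days and are compared here by their counts. ACRV1 had 3 counts over the Ha libraries and 18 over La, a scaled ratio of La over Ha of 6.71, with a 95% interval of counting error from 1.96 to 35.5. It was called when all 12 libraries entered one fit (2.58, adjusted p = 0.039 by edgeR) and not called when the filter was dropped (2.59, adjusted p = 0.11). The assembled SPACA7 went the other way, with 11 counts over Ha and 2 over La and a ratio of 0.203 (0.0219 to 0.931). It was called neither with all 12 libraries in one fit (−2.10, adjusted p = 0.13 by edgeR) nor without the filter (−2.11, adjusted p = 0.261 by edgeR). For ACR the sums were 6 and 13, with a ratio of 2.42 (0.859 to 7.77). SPACA4 had 2 and 7 counts, with 3.91 (0.745 to 38.6), and SPACA3 had 1 and 4. The intervals of ACR and SPACA4 include 1, so no difference was detectable at this depth.

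Values of germ cell markers stand beside this comparison. Of 8 spermatocyte markers 4 were called lower in La (SYCP1 −1.38, SYCP2 −1.29, HORMAD1 −1.69 and PIWIL1 −1.21), beside 4.01% of all coding genes. All 8 had a negative log2 fold change, although DMC1, SYCP3 and MEIOB overlapped between the groups, and the number called was 0 to 4 over the alternatives. Their summed FPKM was 10.5, 10.96 and 6.50 in Ha and 5.40, 4.76 and 4.41 in La, with PIWIL1 the most abundant at 120 days and no marker at or under 3 counts in every library. The 4 calls did not survive every exclusion of a library. SYCP1 and PIWIL1 lost theirs without Ha1, Ha2, La1, La2 or La3, with adjusted p up to 0.139 and 0.0772. SYCP2 and HORMAD1 lost theirs without Ha1, Ha2, La2 or La3, with adjusted p up to 0.0666 and 0.0638. Of 8 tested spermatogonia markers 7 were negative and DAZL was called (−1.66). The 4 of 7 spermatid markers that could be tested all had a positive log2 fold change (median 0.78), with 0 called by edgeR, 0 at an unadjusted p under 0.05 and 0 called in any alternative. Among somatic markers AMH (1.96), INHA (1.51) and FSHR (1.22), 3 of 8 of Sertoli cells, and HSD17B3 (1.15), 1 of 7 of Leydig cells, were called higher in La, beside 564 of the 15648 coding genes tested. These counts were 3 and 1 to 2 over the alternatives. The log2 fold change was negative for 2 of the 8 Sertoli cell markers (CLDN11 −0.19 and DHH −0.06). It was also negative for 3 of the 7 Leydig cell markers (STAR −0.40, CYP11A1 −0.47 and HSD3B1 −0.39). The part of these cells in the lower ZPBP2, ZPBP and SPACA1 values of La was not tested.

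At 120 days the breed comparison covers all 11 entries, and it asks whether the older testes differ. None of the 11 was called by edgeR, against 3.85% of the 16311 coding genes tested. At an unadjusted p under 0.05 there were 4 by edgeR (ZPBP2, ZPBP, ACRBP and the assembled SPACA7), 5 by DESeq2, and 3 and 1 by limma with 1 and 0.1 added to FPKM, and neither DESeq2 nor limma called any. The log2 fold change of Lb over Hb was negative for 10 of the 11, with a median of −0.41 beside 0.00 for all coding genes tested. Groups were apart on the CPM scale for 3 of 11 entries, ZPBP2, SPAM1 and the assembled SPACA7, against 32.3% of all genes tested.

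The assembled SPACA7 had CPM of 27.0, 18.4 and 33.2 in Hb and 12.5, 14.0 and 14.1 in Lb. Every Lb library was below every Hb library, and Hb was the more scattered group. The edgeR log2 fold change was −0.90 (SE 0.23, Benjamini-Hochberg adjusted p = 0.0638), and without Hb2 it was −1.09 with an adjusted p of 0.0267, which passes both limits. DESeq2 gave −0.92 with an adjusted p of 0.0069, and the adjusted p ran from 0.0069 to 0.184 over all alternatives. The annotated SPACA7 was not called, with CPM of 8.23, 6.36 and 4.75 in Hb, 2.87, 6.73 and 7.91 in Lb, and −0.09 (SE 0.41), and its 95% interval from −1.05 to 0.86 includes the value of the assembled entry.

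ZPBP2 was lower in Lb in all libraries, at 607, 426 and 568 CPM in Hb against 392, 356 and 341 in Lb. Its log2 fold change was −0.51 (SE 0.15, adjusted p = 0.0866 by edgeR), with adjusted p between 0.0194 and 0.241 over the alternatives. ZPBP had the same fitted value, −0.51 (SE 0.17, adjusted p = 0.12 by edgeR), with 412, 265 and 367 CPM in Hb and 265, 233 and 212 in Lb, where Lb1 only just exceeded Hb2. For ACRBP the CPM was 1604, 1037 and 1490 in Hb and 985, 1132 and 878 in Lb, a log2 fold change of −0.42 (SE 0.18) in which Lb2 exceeded Hb2.

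Smaller differences were fitted for SPACA1 (−0.41, SE 0.18), ACRV1 (−0.33, SE 0.20), ACR (−0.27, SE 0.19) and SPAM1 (−0.25, SE 0.18). The 95% intervals of these 4 reached from −0.82 at the lowest to 0.16 at the highest. SPAM1 was apart on the CPM scale by a narrow gap, 55.3 in the lowest Hb library against 54.3 in the highest Lb library, and its FPKM overlapped. SPACA4 was the exception in sign, at 0.07 (SE 0.26), and turned to −0.19 without Lb2. SPACA3, with 1 library at 0 in each group, had −1.39 with a 95% interval from −4.86 to 2.09, and −0.80 without Lb2 or −2.01 without Lb3.

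**Figure D2:**
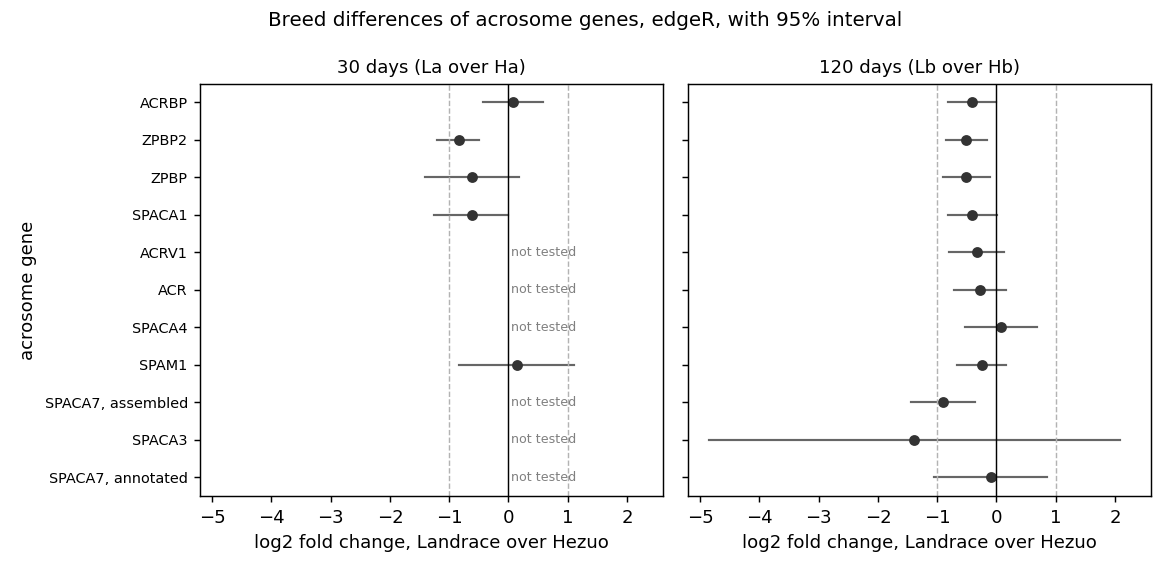
Log2 fold change of Landrace over Hezuo for each acrosome gene entry at 30 days (left) and 120 days (right), with points for the edgeR estimate, bars for its 95% interval and dashed lines at the limit of 1. At 120 days 10 of 11 estimates lie below 0, from −1.39 to −0.09, and none was called.

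Values of other cell markers stand beside the breed comparison at 120 days. All 7 spermatid markers outside the list had a negative log2 fold change of Lb over Hb, with a median of −0.80, and AKAP4 was called (−1.10, adjusted p = 0.0283 by edgeR, lost without Hb3, Lb2 or Lb3 with an adjusted p up to 0.115). Their summed FPKM was 5045, 5526 and 7479 in Hb and 3757, 3131 and 3368 in Lb, most of it from PRM1, a sperm protamine. Of 8 spermatocyte markers 7 were negative (median −0.39), with 0 called by edgeR and 4 at an unadjusted p under 0.05. Of 9 spermatogonia markers 3 were negative (median 0.24), with 0 called by edgeR and 2 at an unadjusted p under 0.05. In each of these 2 lists 0 to 1 were called over the alternatives. Of 10 peritubular and stromal markers 5 were called higher in Lb (2 to 7 over the alternatives), beside 432 of the 16311 coding genes tested, and their summed FPKM was 102, 101 and 66.5 in Hb against 530, 516 and 562 in Lb. Their most abundant gene, COL3A1, had 3.86 (SE 0.73), which was 5.25 without Hb1, and its call was lost without Hb3, Lb1, Lb2 or Lb3, with adjusted p up to 0.0931. Leydig cell markers summed to 2180, 189 and 128 FPKM in Hb and 2708, 4057 and 1712 in Lb, with INSL3 the most abundant, and 0 of 7 were called by edgeR (3 at an unadjusted p under 0.05, and 0 to 5 called over the alternatives). In both of these lists no marker was at or under 3 counts in every library. All 8 Sertoli, 5 endothelial and 5 macrophage markers had positive values, with 0, 1 and 1 called by edgeR (3, 2 and 3 at an unadjusted p under 0.05, and 0 to 2, 0 to 1 and 0 to 2 called over the alternatives). What these cell types contribute to the lower acrosome values of Lb was not tested.

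The difference between the breeds in the age change was tested directly, as the interaction over all 12 libraries, with all 11 entries in the fit. It was called for 1 of 11, ACRV1, against 5.14% of the 17332 coding genes tested. The interaction of ACRV1 was −2.96 (SE 0.74, Benjamini-Hochberg adjusted p = 0.0359 by edgeR), a smaller rise in Landrace, and DESeq2 gave −3.17 with an adjusted p of 0.0109. It stems from the 30-day counts given above, 1, 2 and 0 in Ha against 9, 5 and 4 in La, since at 120 days the CPM of the breeds overlapped (220, 223 and 161 in Hb, 121, 182 and 162 in Lb). With so few counts the fitted size depends on the prior count. The call was lost without Ha1 (−2.90, adjusted p = 0.1), Ha3 (−2.39, 0.0767), Hb1 (−2.87, 0.0546), La1 (−2.58, 0.102), La2 (−2.95, 0.0764) or Lb3 (−2.97, 0.0516), and the size moved to −3.79 without Ha2. Limma on FPKM gave much smaller values and did not call it (−0.42, adjusted p = 0.282, with 1 added and −1.34, adjusted p = 0.0557, with 0.1 added).

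For the other entries the interaction was not called. ACRBP had −0.54 (SE 0.27, adjusted p = 0.251 by edgeR), the closest to the threshold among those with more than 30 counts in each library. ZPBP2 (0.28, SE 0.20), SPACA1 (0.17, SE 0.27) and ZPBP (0.06, SE 0.37) were positive, and SPAM1 was negative (−0.45, SE 0.35). For ACR (−1.55, SE 0.99), SPACA4 (−1.72, SE 0.93), the assembled SPACA7 (1.15, SE 0.84) and SPACA3 (−3.21, SE 3.31) the errors were wide. Leaving out 1 library moved ACR to −2.40 (Ha3), −2.14 (La1) or −0.89 (La2), SPACA4 to −0.63 (La3), and SPACA3 to −4.90 (Ha2) or −2.62 (Hb3 or Lb2). No interaction can be read for the annotated SPACA7, since both 30-day groups are at 0.

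Within the 120-day groups the acrosome genes did not all rank the boars alike. Deviations were taken as log2 CPM from the group mean, for the 10 entries other than SPACA3. Hb1 was above the mean for all 10, by 0.09 (assembled SPACA7) to 0.39 (annotated SPACA7). Hb2 was the lowest for ACRBP (−0.38), ZPBP (−0.37), ZPBP2 (−0.31), ACR (−0.30) and the assembled SPACA7 (−0.47). Hb3 was the lowest for SPACA1 (−0.30), ACRV1 (−0.31), SPAM1 (−0.19), SPACA4 (−0.14) and the annotated SPACA7 (−0.41). In Lb the widest deviations were those of the annotated SPACA7 in Lb1 (−0.90) and Lb3 (0.56) and of SPACA4 in Lb2 (0.49) and Lb1 (−0.48), while ZPBP2 stayed within 0.11 and SPAM1 within 0.10.

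How far each profile lay from the common one was measured as the root-mean-square difference of centred log2 CPM over the 12 libraries. SPAM1 was nearest to the mean of the entries (0.266), followed by SPACA4 (0.463), ZPBP (0.490), SPACA1 (0.496) and the assembled SPACA7 (0.510). The annotated SPACA7 (0.596), ACRBP (0.581) and ZPBP2 (0.761) were a little farther. ACRV1 (1.52), ACR (1.72) and SPACA3 (2.57) were the farthest. ACR and ACRV1 join near-zero counts at 30 days to FPKM of 70.4 or more at 120 days, and SPACA3 has a 0 in each 120-day group.

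By the same measure, the coding genes outside the list closest to the mean profile, out of 16631, were ODF3L1 (0.204), AK9 (0.226), C3orf86 (0.237), C3H2orf78 (0.274) and LOC110257873 (0.294). ODF3L1 is a relative of a component of the outer dense fibres of the sperm tail, and its log2 fold change of Lb over Hb was −0.41 (SE 0.24). The gene nearest to ACRBP was TCTE3 (0.171), a light chain of dynein expressed in testis, and that nearest to ZPBP2 was ADAD1 (0.194), an RNA-binding protein of germ cells. ADAD1 had 8.04, 7.22 and 7.25 FPKM in Ha and 4.03, 4.61 and 4.29 in La, and 207, 157 and 191 in Hb against 154, 131 and 153 in Lb. SPACA1 was nearest to PLCZ1 (0.234), the sperm phospholipase that activates the egg, and ACRV1 to ACTL7A (0.348), an actin-like protein under the acrosome. ZPBP was nearest to C9H11orf70 (0.213), SPACA4 to C2H11orf94 (0.275), SPAM1 to LOC110257873 (0.256) and the 2 SPACA7 entries to C5H22orf23 (0.348, assembled) and SPATA46 (0.226, annotated). ACR (FHAD1, 0.649) and SPACA3 (FAM186A, 1.09) had no neighbour as close. Where a gene has hardly any counts at 30 days, as TCTE3 (0 to 2 counts per library), ODF3L1 and C3orf86 (0 or 1) and LOC110257873 (0) do, this distance depends on the prior count. TCTE3 had fitted age changes of 9.69 and 9.36, above those of ACRBP.

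In the deposited GO annotation 8 of the 11 entries carry the term acrosomal vesicle, 4 carry acrosome assembly (ACRBP, ZPBP, ZPBP2 and SPACA1), 3 carry binding of sperm to zona pellucida (ACR, ZPBP and ZPBP2) and 1 carries acrosome reaction (ACR). SPACA4, SPAM1 and the assembled SPACA7 carry none of these terms. The 4 entries of acrosome assembly are those with the highest FPKM at 30 days and the only ones with more than 30 counts in each 30-day library. They also had the highest mean FPKM at 120 days, although SPACA1 overlapped ACRV1 and ACR.

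Outside the list the same GO terms held more mixed sets. Of all coding genes tested, 28.2% were called higher and 23.2% lower at 120 days in Hezuo, and 27.5% and 20.1% in Landrace. Of 38 tested entries of acrosomal vesicle 27 were called higher and 4 lower at 120 days in Hezuo, with a median log2 fold change of 3.95 (3.63 with lower bounds), and 26 and 5 of 38 in Landrace (median 3.68). For acrosome assembly 6 of 9 were called higher in Hezuo (median 1.94) and 5 of 9 in Landrace (1.13). For acrosome reaction it was 6 of 10 higher and 1 lower (2.26), and 6 of 9 (3.48). For binding to the zona pellucida 9 of 13 were called higher and 1 lower in each breed (1.33 and 1.45).

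Of the genes within 10 kb of an acrosome gene, C9H7orf72, 2491 bases from ZPBP, was called higher at 120 days in both breeds (95% interval 3.43 to 6.57 in Hezuo, with 6.08 fitted without Ha3, and 4.99, SE 0.33, in Landrace). LPAR5, 1624 bases from ACRBP, was called higher as well (3.09 and 1.87), from 0.13 to 0.28 FPKM at 30 days to 0.59 to 1.08 at 120 days. ING4, 139 bases from ACRBP on its other side, was fitted lower at 120 days (−0.84 and −0.63) without a call. Beside ACR, RABL2B was called higher (1.69 and 1.27) and SHANK3 lower (−1.18 and −1.56). IKZF3, next to ZPBP2, was called lower in Landrace (−2.50, SE 0.46, and −3.12 without Lb3), with −1.22 (SE 0.49) in Hezuo, uncalled, and an interaction that was not called either (−1.31, SE 0.73). Near SPACA4 no gene was called for age: RPL18 had −0.78 and −0.88, FAM83E had 95% intervals of −0.08 to 2.48 and −0.61 to 2.38, and SULT2B1 was too low to be tested for age. Background shares of genes called lower at 120 days were 23.2% in Hezuo and 20.1% in Landrace.

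Of 10706 long noncoding transcripts, 7 lay over or within 10 kb of an acrosome gene, and 4 of these had at least 10 counts in a library. LOC102168075 overlaps the end of the annotated SPACA7 and had 2, 4 and 3 counts in Ha and 35.8, 22.5 and 19.2 in Hb, with 1, 6 and 9 in La and 37.8, 13.9 and 35.8 in Lb. It was the 1 transcript of the 4 that could be tested and was called higher at 120 days in both breeds, by 2.88 (SE 0.51, adjusted p = 0.00249 by edgeR) and 1.98 (SE 0.74, adjusted p = 0.0449). The background was 38.6% and 41.8% of the noncoding transcripts tested. Between the breeds at 120 days it was not called (0.08, SE 0.48), against 3.14% of transcripts. LOC110255863, 5281 bases from SPACA7, ran the other way, with 15, 5 and 9 counts in Ha and 9, 9 and 15 in La, but 0 in all Hb libraries and 0, 0 and 3 in Lb. LOC106506801, which spans SPAM1, had 13, 11 and 8 counts in Hb, 4, 6 and 7 in Lb and at most 3 in a 30-day library. An assembled noncoding transcript from 64029941 to 64037149 on chromosome 5, which lies mostly over ING4 and reaches the start of the ACRBP span, had 3.90, 0 and 27.1 counts in Hb, at most 5.62 in Lb and 0 at 30 days.

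The other genes of the acrosome were taken from 3 lists. Of 22 further content and membrane genes 21 were in the table and 18 were tested, and 17 of the 18 were called higher at 120 days in each breed. The share of all coding genes called higher was 28.2% in Hezuo and 27.5% in Landrace. The median log2 fold change of the 18 was 7.49 in Hezuo (5.98 with genes at 0 set to their lower bound) and 6.89 in Landrace (6.54). NECTIN3, an adhesion protein, was the exception among the tested genes (−0.48 and −0.67). CRISP2, a cysteine-rich secretory protein of the acrosome and tail, was the most abundant, at 1275, 1137 and 1465 FPKM in Hb and 756, 765 and 722 in Lb. DKKL1 (589, 391 and 588 in Hb) and PKDREJ, a membrane protein of the sperm head (499, 298 and 422 in Hb), followed. EQTN, which encodes another acrosomal membrane protein, had 1 count in Ha3 and 0 in the other libraries. LYZL4 and PRSS37 were too low to be tested as well. LYZL4 had 1, 1 and 2 counts in Ha, 0, 6.76 and 16 in La and 0 in every 120-day library. PRSS37 had 9.29 counts in Hb2, 0 in the other 120-day libraries and at most 2 at 30 days.

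Between the breeds 1 of 18 tested genes of this list was called at 120 days and 2 of 13 at 30 days, beside 3.85% and 7.62% of all coding genes. TEX101, a germ cell surface protein, had 4.36, 3.26 and 3.98 FPKM in Hb and 10.2, 9.09 and 10.6 in Lb (1.24, SE 0.20, adjusted p = 0.0218 by edgeR), opposite in sign to 10 of the 11 acrosome entries. Its call was lost without Hb3, Lb1, Lb2 or Lb3, with adjusted p up to 0.0804. At 30 days LYPD4 (−2.46, SE 0.52) and ZAN (−1.22, SE 0.27), which encodes the zona-binding zonadhesin, were called lower in La. LYPD4 lost its call without La2 or La3 (adjusted p up to 0.069) and ZAN without Ha2, La1 or La3 (up to 0.0705).

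Genes that build the acrosome moved less uniformly. Of 24 listed 23 were in the table, and 17 of 21 tested were called higher at 120 days in Hezuo (median 4.80) and 16 of 22 in Landrace (3.38). The share of all coding genes called higher was 28.2% and 27.5%. The actin-related ACTRT2 (315, 209 and 297 FPKM in Hb), ACTL7A (263, 263 and 265) and ACTL9 (296, 206 and 300) of the perinuclear theca, the layer under the acrosome, were the most abundant. SMAP2 (0.71 and 0.68), VPS54 (−0.05 and −0.27), ATG7 (−0.34 and −0.10) and CSNK2A2 (0.96 and 0.82) were called in neither breed, while the vesicle traffic genes TMF1 (2.24 and 1.57), PICK1 (2.23 and 1.35) and AGFG1 (1.94 and 1.13) were called in both. CAPZA3, a sperm actin-capping protein, was called lower in Lb than in Hb (−2.01, SE 0.37, adjusted p = 0.0278 by edgeR), with 55.2, 99.4 and 83.3 counts in Hb and 24.8, 19.4 and 22.0 in Lb. This call was lost without Hb3, Lb1, Lb2 or Lb3 (adjusted p up to 0.106). At 30 days DPY19L2, an anchor of the acrosome to the nucleus, was called lower in La (−1.48, SE 0.42), and lost the call without Ha1, Ha2, La1, La2 or La3 (adjusted p up to 0.141).

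The machinery of acrosomal exocytosis, shared with other secretory cells, was mixed. Of its 17 entries 6 were called higher and 2 lower of 15 tested in Hezuo (median 0.26), beside 28.2% and 23.2% of all coding genes. In Landrace 2 were called higher and 3 lower of 13 (median 0.70), beside 27.5% and 20.1%. The 2 entries of the phospholipase gene PLCD4 had 3.38 and 5.62 in Hezuo, but neither exceeded 0.96 FPKM in any library. The entry at 5.62 had 0, 0 and 2.16 counts in Ha, so its fitted size depends on the prior count. Over the alternatives the number called higher fell as low as 0 in both breeds. The summed FPKM was 130, 129 and 131 in Ha, 121, 133 and 127 in Hb, 116, 113 and 119 in La, and 130, 129 and 135 in Lb. NAPA (58.2, 47.6 and 56.6 FPKM in Hb), NSF (13.7, 21.3 and 14.8) and the calcium channel gene CACNA1H (9.44, 16.7 and 11.9) were the most abundant by the mean over the 6 libraries of 120 days, although SNAP23 (15.1, 12.9 and 14.3) exceeded CACNA1H in Hb1 and Hb3. RAB27A, a GTPase of vesicle docking, was called lower at 120 days in both breeds (−1.54, SE 0.47, and −2.30, SE 0.31). The Hezuo call of RAB27A was lost without Ha3 or Hb3 (adjusted p up to 0.0657), and its value was −2.29 without Hb2. Between the breeds no gene of this list was called by edgeR at either age (3 at an unadjusted p under 0.05 at each age, and at most 1 called over the alternatives).

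**Figure D3:**
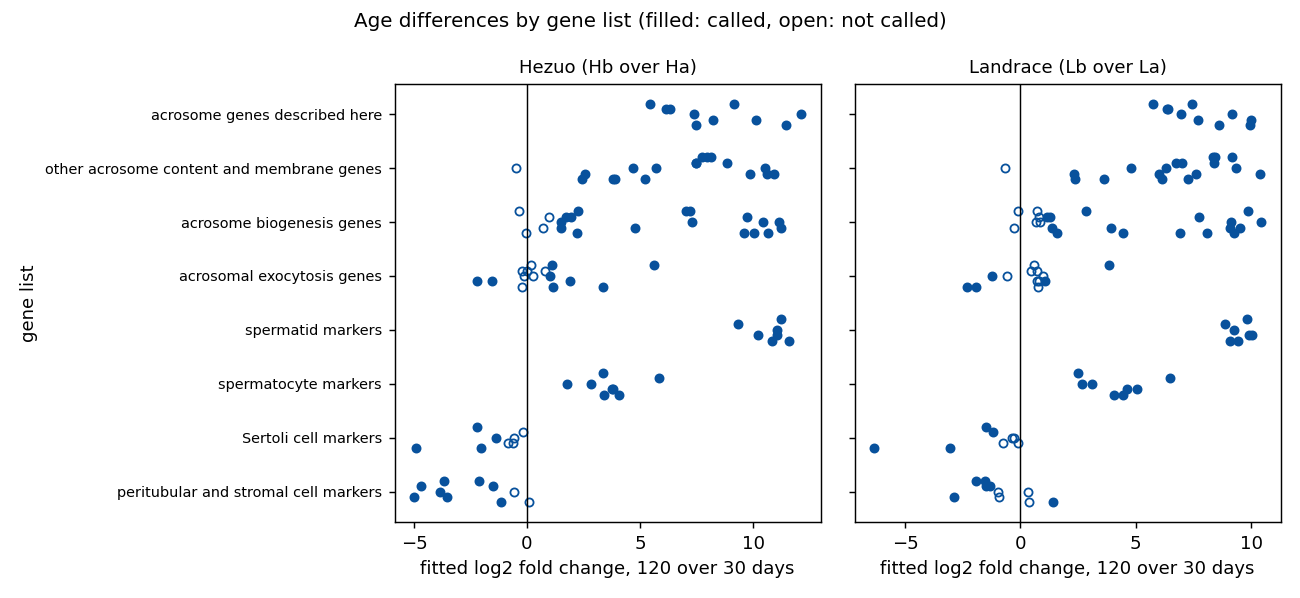
Fitted log2 fold change of 120 over 30 days in Hezuo (left) and Landrace (right), with 1 point per tested gene, filled where called, by gene list; values of genes at 0 at 30 days depend on the prior count. The 10 tested acrosome entries lie between 5.45 and 12.13 and between 5.75 and 10.01, while the exocytosis genes scatter around medians of 0.26 and 0.70.

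Marker genes of the cell types of the testis also differed between the ages. The background was 28.2% of all coding genes called higher and 23.2% lower in Hezuo, and 27.5% and 20.1% in Landrace. All 7 spermatid markers were called higher at 120 days in both breeds (medians 11.06 and 9.42), with summed FPKM of 3.21, 4.93 and 4.43 in Ha and 8.82, 7.39 and 3.28 in La. All 8 spermatocyte markers were called higher too (3.58 and 4.26), and summed to 152, 157 and 134 FPKM in Hb and 116, 110 and 124 in Lb. Spermatogonia markers were split, with 3 higher and 4 lower of 9 in Hezuo and 4 and 3 in Landrace. Their summed FPKM was 65.3, 64.7 and 49.9 in Ha, 176, 180 and 171 in Hb, 35.3, 34.3 and 38.7 in La, and 154, 139 and 160 in Lb, with DDX4 the most abundant.

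Some somatic markers were called lower at 120 days and others were not. Of all coding genes tested, 23.2% were called lower in Hezuo and 20.1% in Landrace. Sertoli cell markers were called lower for 4 of 8 in each breed and summed to 782, 751 and 973 FPKM in Ha, 181, 288 and 216 in Hb, 1508, 1770 and 1632 in La, and 311, 385 and 371 in Lb. CLDN11, their most abundant gene at 120 days, was not called for age (−0.85 and −0.12). Peritubular and stromal markers were called lower for 8 of 10 in Hezuo and 5 of 10 in Landrace, where ACTA2 was called higher (1.42), from summed FPKM of 977, 950 and 978 in Ha and 1341, 1224 and 1512 in La. Leydig cell markers were called lower for 4 and 5 of 7, with INSL3 not among them (−0.99 and −0.26), from 5487, 5009 and 4883 FPKM in Ha and 7771, 5341 and 6281 in La. INSL3 was uneven in Hb, at 1549 FPKM in Hb1 but 83.7 and 27.5 in Hb2 and Hb3, against 1815, 1423 and 1717 in Ha. Its Hezuo value (SE 1.26) therefore rests on Hb1.

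Endothelial markers were called lower for 5 and 3 of 5 (VWF most abundant), and macrophage markers for 5 and 4 of 5 (CSF1R most abundant). The background was again 23.2% and 20.1% of all coding genes. Endothelial markers summed to 93.7, 94.6 and 84.4 FPKM in Ha, 13.9, 26.7 and 15.7 in Hb, 98.0, 78.3 and 91.0 in La, and 28.2, 45.7 and 28.6 in Lb. Macrophage markers summed to 40.3, 32.7 and 32.6 in Ha, 3.49, 4.56 and 2.24 in Hb, 38.3, 33.0 and 36.3 in La, and 5.91, 9.64 and 9.91 in Lb. None of the markers of these somatic or germ cell lists was at or under 3 counts in every library. Epididymal markers, of which CST11 and RNASE9 had at most 3 counts in every library, summed to at most 1.25 FPKM, with RNASE10 the most abundant. None could be tested for age in Hezuo. In Landrace 1 of 3 tested, LCN6, was called higher at 120 days (0 to 2 over the alternatives), beside 27.5% of all coding genes. LCN6 had 0 counts in La and 12, 34 and 17 in Lb. The part of cell composition in the age differences of the acrosome genes was not tested.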

How the data were processed

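Testis RNA of 12 boars in 4 groups was analysed, with each deposited column matched to its library by name. The authors removed rRNA reads, filtered with fastp 0.18.0 and Bowtie2 2.2.8, mapped to Sus scrofa 11.1 with HISAT2 2.1.0 and assembled with StringTie 1.3.4. The authors deposited an estimated count per gene or noncoding transcript, not normalized and often not whole. Which program made the estimated counts, and whether it used strand, is not stated in the sources used here. The deposited FPKM values were made by the authors with StringTie, scaled for length and mapped fragments and rounded to 2 decimals.

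Estimated counts were rounded to whole numbers, filtered with filterByExpr (minimum count 10), scaled with TMM and tested with edgeR 4.0.16 (R 4.3.3) on the 6 libraries of each comparison, noncoding transcripts separately. The interaction used all 12 libraries. The SE is the log2 fold change divided by the square root of the F statistic. Likeness was the root-mean-square difference of centred log2 CPM (prior count 2). Intervals of counting error were exact at 95%. The code was tested on simulated data. Depth per group stands in the report, and a gene at 0 was given a floor of 3 counts per library.

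Members, gene lists, cell markers and the rule for named genes were chosen with earlier results of these data known. Named were all acrosome entries, from each acrosome list the 3 genes of highest FPKM at 120 days, up to 4 called between breeds at 120 days or in the interaction and up to 3 called lower at 120 days in both breeds, the most abundant marker of each cell type, the closest genes in profile and noncoding transcripts within 10 kb with 10 or more counts. Other genes of the lists, neighbouring genes and genes called at 30 days were named after their values were seen. Alternatives were DESeq2 1.42.0, limma 3.58.1 on log2 FPKM with 1 or 0.1 added, RLE factors, library totals, other filters, all 12 libraries in one fit, a replicate block and leaving out each library. Tables and figures were made in Python 3.11.15 (matplotlib 3.10.9, scipy 1.17.1, pandas 2.3.3, numpy 2.4.6). 1 gene that the rule for named genes picks is not reported here. No sequence features were analysed here.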

Additional observations from a re-analysis of the deposited data

Results flagged for a closer look

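The interaction of breed and age, a test of the difference between the age changes, was called by edgeR for the genes below and for 5.14% of all coding genes tested. Several of the genes were named because of this call, so their number is no finding. Values are log2 of (Lb over La) over (Hb over Ha), and a negative value is a smaller rise or a larger fall in Landrace.

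Among the acrosome genes this was ACRV1 (−2.96), which had 1, 2 and 0 counts in Ha and 9, 5 and 4 in La. Among other content and membrane genes it was LYZL6 (−4.93), whose Ha libraries were all at 0 against 7.19, 3 and 2 counts in La, so that the fitted size depends on the prior count. CRISP2 had −1.21 (SE 0.29), with 1275, 1137 and 1465 FPKM in Hb against 756, 765 and 722 in Lb and overlapping values at 30 days. LYPD4 had 2.05 (SE 0.56), with 7.51, 8.70 and 1.86 FPKM in Ha against 1.21, 1.11 and 0.85 in La.

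Among genes that build the acrosome these were CCIN (−2.05, SE 0.55), which encodes calicin of the perinuclear theca and had 8.75, 10.8 and 4.72 counts in Ha against 37.8, 20.4 and 11.2 in La, and GOPC (−1.03, SE 0.28), a Golgi protein. Among the most abundant markers of each cell type they were PRM1 (−1.83, SE 0.44) and COL3A1 (3.19, SE 0.79). Over the whole marker lists the interaction was called for 1 of 7 spermatid (0 to 2 over the alternatives), 2 of 9 spermatogonia (1 to 2), 5 of 10 peritubular and stromal (2 to 6), 1 of 5 endothelial (1 in all) and 1 of 5 macrophage markers (0 to 2). It was called for 0 of 7 Leydig cell markers by edgeR (3 at an unadjusted p under 0.05, and 0 to 5 called over the alternatives).

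These calls depended on single libraries. LYZL6 lost its call without Ha1, Ha2, Ha3, La1 or La2 (adjusted p up to 0.0683) and was −4.30 without La1. CRISP2 lost it without Ha1, Ha3, Hb3, La1, La2 or any Lb library (up to 0.0749). For PRM1 it was any Ha or Lb library, Hb3, La1 or La2 (up to 0.0913), and for COL3A1 it was Ha1, Ha2, any La or any Lb library (up to 0.0744), with a value of 4.65 without Hb1. CCIN lost it without any Ha or Lb library, Hb1, Hb3, La1 or La2 (up to 0.124), GOPC without any Ha, La or Lb library, Hb1 or Hb3 (up to 0.113), and LYPD4 without any library but Ha3 (up to 0.116).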

How the results depend on the processing

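The 10 tested acrosome entries were called higher at 120 days in both breeds under every alternative. In some settings 11 were called, where SPACA3 also passed the filter (leaving out single libraries gave 10 to 11). For ACR, ACRV1, SPACA4 and both SPACA7 entries, near 0 at 30 days, higher was the only call open, so their stable calls carry no weight. Between the breeds at 30 days the count was 0 in all settings but one: it was 1 with all 12 libraries in one fit, where ACRV1 entered the test (2.58, SE 0.71, adjusted p = 0.039), and 0 on leaving out any library. At 120 days it was 0 except without Hb2, when the assembled SPACA7 passed (range 0 to 1). The interaction count was 1 (ACRV1) and fell to 0 with limma on FPKM, whether 1 or 0.1 was added before the log, and ranged from 0 to 1 on leaving out libraries. The cause was not tested. Signs turned for uncalled values only. At 30 days ACRBP ran from −0.05 without La1 to 0.26 without La3, and SPAM1 from −0.04 without La3 to 0.32 without La2. At 120 days the annotated SPACA7 was 0.09 without Hb1, 0.24 without Lb1 and −0.39 without Lb3, and SPACA4 ran from −0.19 without Lb2 to 0.28 without Lb1. In the interaction the assembled SPACA7 was −0.55 with limma on log2(FPKM + 1), the annotated SPACA7 was 0.09 without Hb1, 0.18 without Lb1 and −0.41 without Lb3 (values that cannot be read, with both 30-day groups at 0), and ZPBP was 0.38 without Ha3 and −0.13, −0.03, −0.11, −0.05 and −0.03 without Ha1, Ha2, Hb2, La2 and Lb1. With the replicate block the counts were 10, 10, 0, 0 and 1, and the interaction of ACRV1 was −2.96 with an adjusted p of 0.0479 by edgeR. Same-numbered libraries deviated together with correlations of only −0.02 to 0.05, so no pairing by number was seen in these values. The labels do not say whether the numbers pair boars. Library totals in place of TMM shifted the median of all genes by −0.30 in Hezuo, −0.17 in Landrace and 0.15 in the interaction. On the FPKM scale with 0.1 added the shift was −0.45, −0.28, 0.11 at 120 days between breeds and 0.16 in the interaction, and with 1 added −0.26 and −0.17 for age. No acrosome entry changed its side of 0 in the age comparisons. Counts of noncoding transcripts called near the genes (1, 1, 0 and 0) were the same under both of their alternatives. Depth limits ACR, ACRV1, SPACA4, SPACA3 and SPACA7 at 30 days, where a library held at most 9 counts.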

Other observations

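Genes related to the acrosome genes were looked up after the values had been seen. WBP2NL, which encodes a protein of the postacrosomal sheath, followed the list, with log2 fold changes with age of 7.41 (SE 0.26) in Hezuo and 7.66 (SE 0.28) in Landrace and 53.6, 41.7 and 57.9 FPKM in Hb. SPACA5, which is in the list of further content genes, had 0 counts in Ha and 11.9, 12.4 and 9.59 FPKM in Hb, with 0.07, 0 and 0.07 in La and 8.10, 10.4 and 9.51 in Lb. LOC110261493, named in the annotation as like SPACA4, did not follow SPACA4: its FPKM was 0.79, 0.89 and 0.43 in Ha, 0.40, 1.62 and 0.99 in Hb, 0.65, 0.78 and 0.81 in La and 0.12, 0.17 and 0.30 in Lb, a log2 fold change of 0.97 (SE 0.54) in Hezuo and −1.61 (SE 0.43) in Landrace. An acrosin inhibitor gene, LOC396905, stayed between 0.64 and 2.03 FPKM in all 12 libraries (0.26, SE 0.38, and 0.03, SE 0.29), while ACR rose from near 0. SPINK2, a protease inhibitor gene in the list of further content genes, was called higher at 120 days in both breeds (8.16 and 9.19). Its FPKM was 1.62, 1.86 and 0.97 in Ha and 321, 233 and 342 in Hb. In La it was 0.55, 0.41 and 0.71, against 257, 284 and 272 in Lb.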
